A study of Mus musculus with 4 samples.

Results

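The genes described here are 10 mouse cytochrome P450 genes, Cyp1a1, Cyp1b1, Cyp2a4, Cyp2a5, Cyp2b10, Cyp2c40, Cyp2e1, Cyp2f2, Cyp2s1 and Cyp4b1, in lung tumors and non-tumor lung of urethane-treated mice with and without the transcription factor Nrf2. They were taken by name from the probes of the array, from a list chosen with earlier results of these data known. They were read by 13 probes of 41170 and stand among 32300 genes or transcripts. Of the 10 genes, 8 had 1 probe, Cyp2a4 had 3 and Cyp2c40 had 2. RNA came from 4 groups of female ICR mice, 6 months old, that had all received 1 g/kg urethane by intraperitoneal injection 16 weeks earlier: non-tumor lung of Nrf2+/+ mice, non-tumor lung of Nrf2-/- mice, tumors of 1.0 to 1.5 mm of Nrf2+/+ mice, and tumors of that size of Nrf2-/- mice. Each group was a pool of 8 mice hybridised once, in a single colour, to an Agilent whole-mouse-genome array, so each group is 1 array with no replicate. No pool without urethane is analysed here, and the labels do not say whether the mice that gave tumors also gave the non-tumor lung. The Nrf2-/- mice lack Nrf2 in every tissue, so the tumor cells and the lung around them share the genotype.

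Cytochrome P450 enzymes are haem proteins, most of them in the endoplasmic reticulum, that insert an oxygen atom into their substrate with electrons from P450 reductase, the product of Por. Cyp2e1 oxidises urethane (ethyl carbamate) to vinyl carbamate and then to its epoxide, which binds DNA and gives rise to lung tumors in mice. In mouse lung the enzymes of this family are concentrated in club cells, the secretory cells of the bronchioles, and to a lesser degree in alveolar type 2 cells. Nrf2, encoded by Nfe2l2, drives many genes of detoxification through antioxidant response elements, and the aryl hydrocarbon receptor drives Cyp1a1 and Cyp1b1.

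The promoters of 5 of these genes are shown because the data below bear on them: Cyp2e1 as the urethane activator, Cyp2a4 and Cyp2a5 as a pair with like values, and Cyp1a1 and Cyp1b1 as receptor targets with unlike values. All are the bases just before the start site in RefSeq, on build GRCm38.p6, read 5′ to 3′ on the strand of the gene. The Cyp2e1 window, with a TATA box (TATAAA) in capitals 31 bases before the start, is chr7:140763569-140763818 on the plus strand.
Cyp2e1: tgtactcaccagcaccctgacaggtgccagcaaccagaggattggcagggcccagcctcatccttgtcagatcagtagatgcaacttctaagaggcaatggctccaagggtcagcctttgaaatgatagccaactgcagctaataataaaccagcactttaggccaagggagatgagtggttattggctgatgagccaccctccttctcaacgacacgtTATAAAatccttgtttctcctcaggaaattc
The windows of Cyp2a4 (chr7:26306943-26307191) and Cyp2a5 (chr7:26835089-26835337), both on the plus strand, are aligned over 249 bases with the second start shifted by 1 base, and capitals mark the 4 positions at which they differ.
Cyp2a4: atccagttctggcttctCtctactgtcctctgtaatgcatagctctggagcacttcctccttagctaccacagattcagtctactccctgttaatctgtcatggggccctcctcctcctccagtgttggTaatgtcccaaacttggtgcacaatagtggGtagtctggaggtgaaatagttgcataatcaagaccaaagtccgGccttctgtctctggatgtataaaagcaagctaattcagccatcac
Cyp2a5: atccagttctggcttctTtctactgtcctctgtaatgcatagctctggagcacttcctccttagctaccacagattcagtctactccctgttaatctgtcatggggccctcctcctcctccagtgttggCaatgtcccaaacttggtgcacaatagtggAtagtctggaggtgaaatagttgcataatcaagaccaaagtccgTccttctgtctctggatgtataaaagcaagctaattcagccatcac
These windows were identical at 245 of 249 bases, or 98.4%, while the other 44 pairs among the 10 genes, compared without gaps at shifts of up to 5 bases, were identical at 25.6% to 35.5%. In Cyp1a1 (chr9:57697363-57697612, plus strand) and Cyp1b1 (chr17:79715062-79715311, minus strand) capitals mark the core GCGTG of the site bound by the aryl hydrocarbon receptor, which lies on the other strand, as CACGC, in Cyp1b1.
Cyp1a1: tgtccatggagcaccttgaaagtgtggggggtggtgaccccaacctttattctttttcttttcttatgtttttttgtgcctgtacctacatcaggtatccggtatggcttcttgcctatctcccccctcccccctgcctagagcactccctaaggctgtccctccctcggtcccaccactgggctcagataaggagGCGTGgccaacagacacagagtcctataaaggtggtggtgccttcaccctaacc
Cyp1b1: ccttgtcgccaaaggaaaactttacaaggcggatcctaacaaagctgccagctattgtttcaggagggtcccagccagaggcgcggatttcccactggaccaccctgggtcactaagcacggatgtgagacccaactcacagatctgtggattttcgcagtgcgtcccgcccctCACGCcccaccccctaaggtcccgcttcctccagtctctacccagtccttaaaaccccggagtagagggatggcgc
Searched on both strands of the 250 bases before each start, GCGTG was in 3 of the 10 windows (Cyp1a1, Cyp1b1 and Cyp2b10) and in 28.2% of all 32851 windows of this length. TATAAA was in 4 of 10 (Cyp1a1, Cyp2a4, Cyp2a5 and Cyp2e1) and in 12.4% of all windows, and the antioxidant response core TGACNNNGC in 0 of 10 and in 10.2%. These motifs do not overlap one another in the windows shown, and a match describes letters in the window and nothing else.

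By the scanner software's own call 54.2% to 63.5% of non-control spots were well above background and none was saturated, with the smaller shares and the lower 75th percentiles (555 and 584 against 760 and 742 intensity units) in the tumor pools. The Nfe2l2 probe was bright in both Nrf2+/+ pools (7913 and 7478 intensity units) and not well above background in either Nrf2-/- pool, lower by at least 376-fold in lung and by at least 268-fold in tumors, so the labels of genotype held. The alveolar marker Sftpc was bright on every array (251628 to 276632). Slides were unevenly filled: Nrf2+/+ non-tumor lung was alone on slide 1, and slide 2 held the remaining 3 arrays. The tumor comparison of Nrf2+/+ mice and the genotype comparison of non-tumor lung therefore run across slides, where slide and group cannot be told apart, and the other pair of comparisons lies within 1 slide. Signals below are background-subtracted intensities with the software's error, and differences are in log2 level, the log2 signal relative to the 75th percentile of the array. A gene was counted as higher or lower when its difference reached 1 on the log2 scale (2-fold) and one or both of the arrays compared called it well above background. Such a difference describes 2 pools and has no test. Fewer cells of a type and less RNA per cell cannot be told apart in these whole-tissue pools.

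Cyp2e1 was measured on all 4 arrays and was lower in tumor than in non-tumor lung in both genotypes. Its signal was 127 ± 13.4 in Nrf2+/+ non-tumor lung, 135 ± 14.1 in Nrf2-/- non-tumor lung, 35.2 ± 5.79 in Nrf2+/+ tumors and 60.0 ± 8.37 in Nrf2-/- tumors. Both tumor pools lay below both non-tumor pools, and the Nrf2+/+ tumor was the lowest of the 4. The lowest signals that counted as well above background were 20.6 to 29.4 over the arrays, so the tumor values of Cyp2e1 were close to that limit. The difference, tumor minus non-tumor, was -1.39 (software error 0.28) in Nrf2+/+ and -0.82 (0.25) in Nrf2-/- mice, that is, 2.62-fold and 1.77-fold lower. The non-tumor lungs differed by 0.12 (0.21), less than the software error, and the Nrf2-/- tumor was above the Nrf2+/+ tumor by 0.70 (0.31), which is 1.62-fold. In the plain order Nrf2-/- non-tumor, Nrf2+/+ non-tumor, Nrf2-/- tumor, Nrf2+/+ tumor, only the first neighbours lay within 2 software errors of each other. The 2-fold call in Nrf2+/+ ended with a normexp background correction, which gave -0.50, while scaling on spike-in probes took the Nrf2-/- value past it (-1.09).

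**Figure D1:**
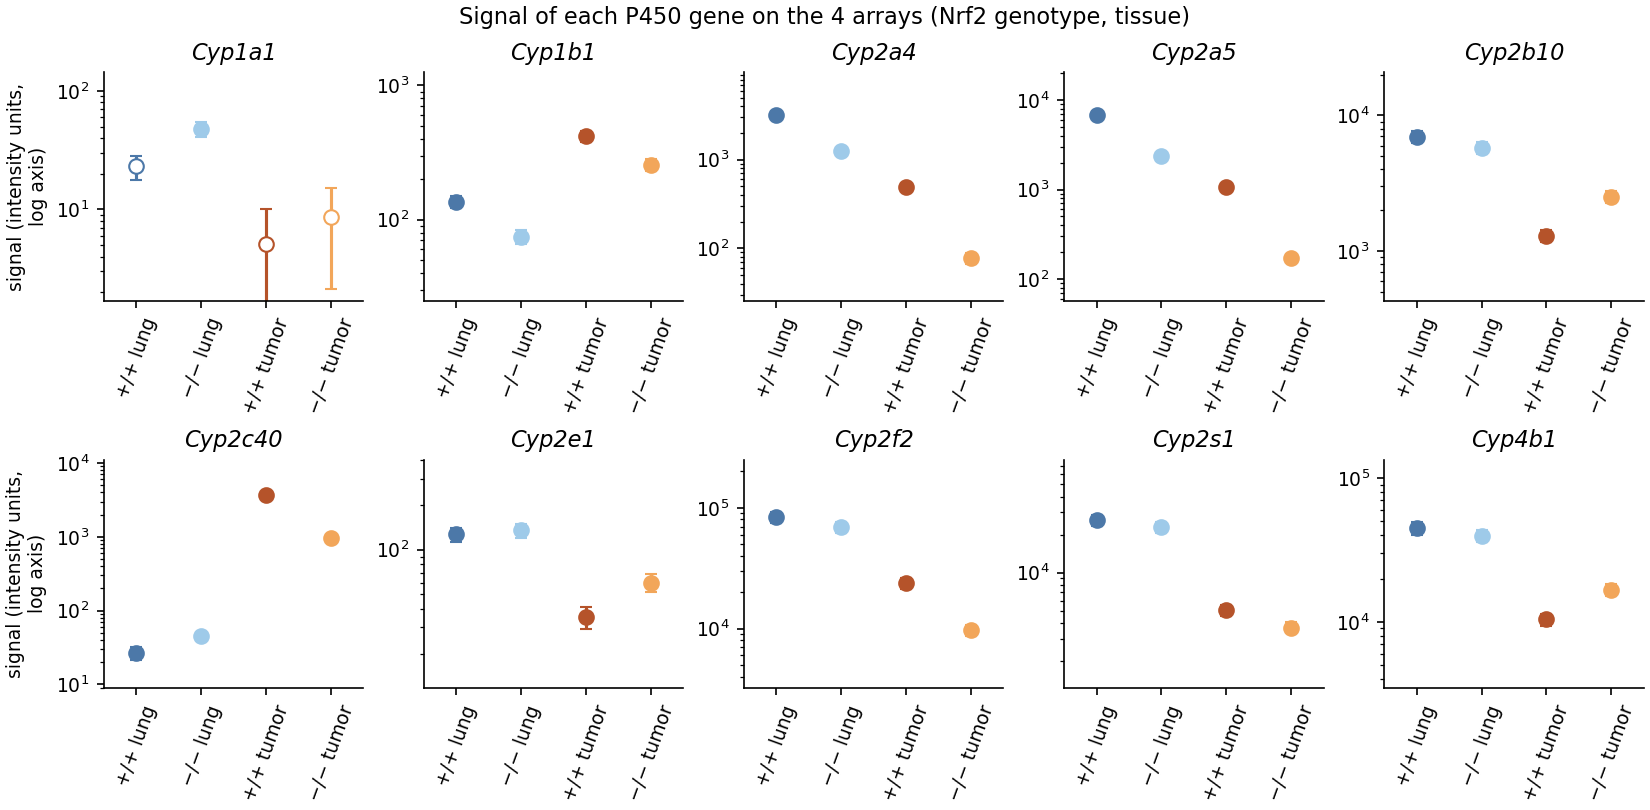
Processed signal (intensity units, log axis, each panel with its own range) of the main probe of each P450 gene in the 4 pools, 1 array each; +/+ and −/− are the Nrf2 genotypes, bars are the software's error and open points were not well above background. Cyp2e1 goes from 127 and 135 in non-tumor lung to 35.2 and 60.0 in tumors, while Cyp1b1 and Cyp2c40 are highest in tumors.

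Cyp2f2, Cyp2s1 and Cyp4b1 are the P450 genes of this list best known from the airway epithelium, and all were lower in both tumor pools. Cyp2f2, the club cell enzyme that activates naphthalene, had signals of 83620 in Nrf2+/+ non-tumor lung, 68799 in Nrf2-/- non-tumor lung, 23678 in Nrf2+/+ tumors and 9690 in Nrf2-/- tumors. The Nrf2-/- tumor was the lowest and the non-tumor pools lay within 2 software errors of each other. The tumor difference was -1.37 in Nrf2+/+ and -2.48 in Nrf2-/- mice, each with a software error of 0.20, or 2.58-fold and 5.59-fold lower.

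Cyp2s1, a P450 of epithelia outside the liver that acts on retinoids and lipid peroxides, had signals of 26194, 23027, 5045 and 3672 in the same order of pools. Its tumor differences were -1.92 and -2.30, and the tumor pools differed from each other by only 0.53. Cyp4b1, which activates furan toxins such as 4-ipomeanol in rodent lung, read 45006, 39791, 10388 and 16715. Here the order of the tumors was the other way round: the difference was -1.66 in Nrf2+/+ and -0.91 in Nrf2-/- mice. The last value passed the 2-fold mark with quantile normalization (-1.17) and with spike-in scaling (-1.18).

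Cyp2b10, the mouse gene most used as a readout of the receptor CAR, had the order of pools of Cyp4b1. It read 6936 in Nrf2+/+ non-tumor lung, 5800 in Nrf2-/- non-tumor lung, 1293 in Nrf2+/+ tumors and 2512 in Nrf2-/- tumors. The tumor difference was -1.97 in Nrf2+/+ and -0.86 in Nrf2-/- mice (software error 0.20), or 3.92-fold and 1.82-fold lower. The Nrf2-/- value reached -1.13 with spike-in scaling. The genotype difference of Cyp2b10 was -0.22 in non-tumor lung, within 2 software errors, and 0.89 in tumors.

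Cyp2a5, the coumarin 7-hydroxylase, and its close relative Cyp2a4, a steroid 15-alpha-hydroxylase, had the most negative tumor differences of the list and were lower in Nrf2-/- mice in both tissues. Cyp2a5 read 6850 ± 685 in Nrf2+/+ non-tumor lung, 2349 ± 235 in Nrf2-/- non-tumor lung, 1059 ± 106 in Nrf2+/+ tumors and 171 ± 18.2 in Nrf2-/- tumors. Every step of this order exceeded 2 software errors. The tumor difference was -2.24 in Nrf2+/+ and -3.43 in Nrf2-/- mice, or 4.72-fold and 10.8-fold lower. The genotype difference, Nrf2-/- minus Nrf2+/+, was -1.51 in non-tumor lung (2.85-fold lower) and -2.70 in tumors (6.50-fold lower).

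The main probe of Cyp2a4 ran parallel, at 3230, 1240, 490 and 76.8. Its tumor differences were -2.27 and -3.67, and its genotype differences -1.35 in non-tumor lung and -2.75 in tumors. With normexp the Nrf2-/- tumor difference was -2.92 and the genotype difference in tumors -2.02. The second Cyp2a4 probe read 1635, 467, 203 and 41.7 and gave -2.55 and -3.14 for tumor and -1.78 and -2.36 for genotype. The third probe read 391, 137, 41.6 and, in the Nrf2-/- tumor, 11.4, where it was not well above background. It gave -2.78 in Nrf2+/+ mice, at least 3.66-fold lower tumor signal in Nrf2-/- mice, a genotype difference of -1.48 in non-tumor lung, and a signal in the Nrf2-/- tumor lower than in the Nrf2+/+ tumor by at least 1.49-fold. All 3 probes had the same order of the 4 pools. Cyp2a4 and Cyp2a5 are near-identical copies of each other, as their promoters shown above are, and a probe of one may also bind transcripts of the other, so the 2 genes are uncertain as separate measurements.

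Cyp1b1 and Cyp2c40 went the other way and were higher in tumor in both genotypes. Cyp1b1, which oxidises polycyclic hydrocarbons and oestradiol, had signals of 136 ± 14.5 in Nrf2+/+ non-tumor lung, 74.4 ± 8.91 in Nrf2-/- non-tumor lung, 418 ± 42.2 in Nrf2+/+ tumors and 256 ± 26.5 in Nrf2-/- tumors. Its tumor differences were 2.08 (software error 0.21) and 2.13 (0.23), or 4.22-fold and 4.38-fold higher; the Nrf2-/- value was 1.51 with normexp. The Nrf2-/- pool was the lower one in each tissue, with genotype differences of -0.83 in non-tumor lung and -0.78 in tumors, short of 2-fold.

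Cyp2c40, a hydroxylase of arachidonic acid, was close to background in non-tumor lung and bright in tumors. Its main probe read 26.9 ± 5.23 in Nrf2+/+ non-tumor lung, 45.2 ± 6.29 in Nrf2-/- non-tumor lung, 3710 ± 371 in Nrf2+/+ tumors and 966 ± 96.8 in Nrf2-/- tumors. The tumor difference was 7.56 (0.32) in Nrf2+/+ and 4.76 (0.25) in Nrf2-/- mice, and the Nrf2-/- tumor was 4.04-fold below the Nrf2+/+ tumor. Normexp gave 5.61 and 3.43 for the tumor differences. The second probe read 5.10 and 6.40 in non-tumor lung, not well above background, and 725 and 185 in tumors, at least 45.6-fold and at least 11.4-fold higher. It placed the Nrf2-/- tumor 4.13-fold below the Nrf2+/+ tumor. Cyp2c29, a related gene that is no member of the list, moved with it: its signals were 6.96, 4.56, 854 and 228, at least 53.7-fold and at least 14.1-fold higher in tumor. Probe sequences were not compared, so whether these probes read one another's transcripts is not known. Among the other P450 genes on the array, no Cyp2c gene but Cyp2c29 was counted as higher in tumor.

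Cyp1a1, the best-known target of the aryl hydrocarbon receptor, was well above background in 1 pool only. It read 23.1 ± 5.34 in Nrf2+/+ non-tumor lung, 47.9 ± 6.73 in Nrf2-/- non-tumor lung, 5.10 ± 5.07 in Nrf2+/+ tumors and 8.60 ± 6.48 in Nrf2-/- tumors, of which only the Nrf2-/- non-tumor value was a measured level. Non-tumor lung of Nrf2-/- mice read 2.13-fold above that of Nrf2+/+ mice (log2 difference 1.09, software error 0.39). This is the measured fold and no lower bound, and the Nrf2+/+ signal was not well above background. The Nrf2-/- tumor lay below its non-tumor lung by at least 1.28-fold. No fold is given for the Nrf2+/+ tumor comparison. With normexp the non-tumor genotype difference was 0.31 and the Nrf2-/- tumor difference -0.16, both short of 2-fold.

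**Figure D2:**
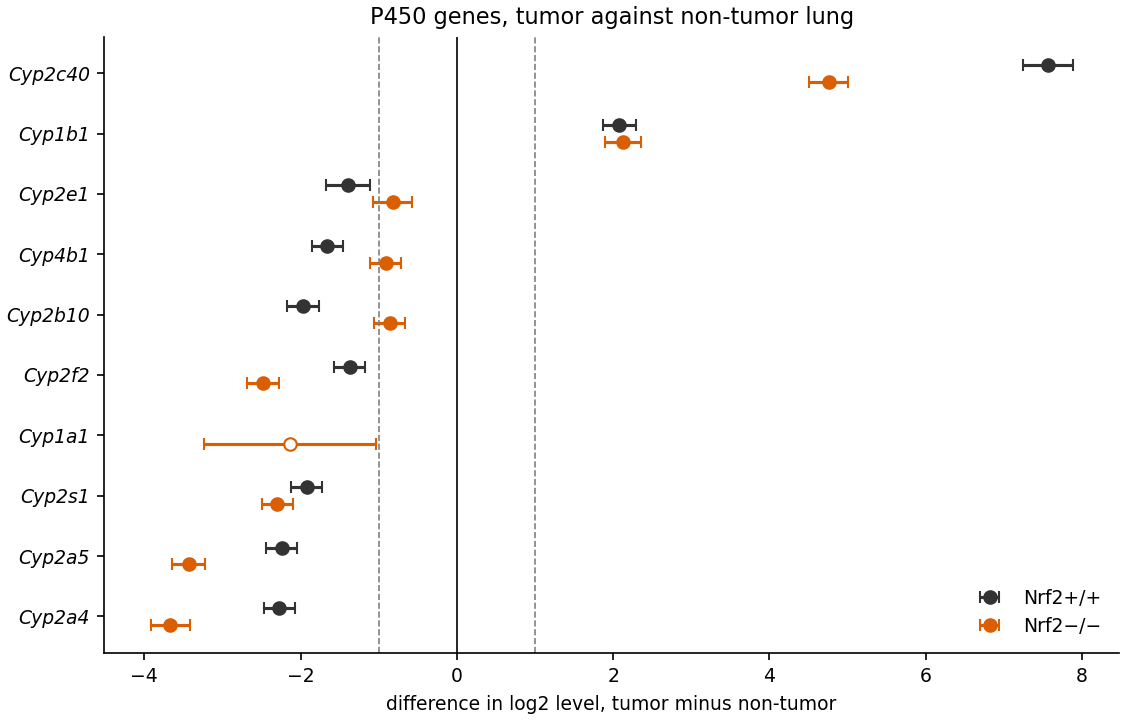
Difference in log2 level, tumor minus non-tumor lung, of the main probe of each P450 gene in Nrf2+/+ and Nrf2-/- mice (1 array per pool). Bars are the software's error, dashed lines mark 2-fold, an open point had 1 array not well above background, and Cyp1a1 in Nrf2+/+ is left out because neither array was; Cyp2c40 and Cyp1b1 lie right of 0 and the other genes left of it.

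Counted over the list, 7 of the 9 members measured in the Nrf2+/+ comparison were at least 2-fold lower in tumor, where 15.3% of all 19913 genes measured were. The other two, Cyp1b1 and Cyp2c40, were at least 2-fold higher, against 8.08% of all genes. In Nrf2-/- mice 5 of 10 were at least 2-fold lower (9.12% of 19426 genes), counting Cyp1a1 by its measured value although its bound is 1.28-fold, and 2 were higher (5.43%). Cyp2b10, Cyp2e1 and Cyp4b1 lay between -0.91 and -0.82 there. Cyp2a4, Cyp2a5, Cyp2f2 and Cyp2s1 were past 2-fold lower in both genotypes, 4 of the 9 members measured in both (6.68% of 18786 genes), and Cyp1b1 and Cyp2c40 past 2-fold higher in both (3.51%). The median tumor difference over the measured members was -1.66 in Nrf2+/+ and -1.52 in Nrf2-/- mice, beside -0.03 and -0.03 over all genes. With scaling on spike-in probes the all-gene medians shifted by -0.22 and -0.27, and this scaling raised the Nrf2-/- count of lower members from 5 to 8 and the share of all measured genes from 9.12% to 13.9%. These 2 comparisons share no array, but each rests on 1 pool per tissue.

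For genotype, Cyp2a4 and Cyp2a5, 2 of 10 members, reached 2-fold lower in non-tumor lung of Nrf2-/- mice (4.61% of 20190 genes), and 1 was higher, Cyp1a1 (3.04%). In tumors 4 of 9 measured members were at least 2-fold lower in Nrf2-/- mice, Cyp2a4, Cyp2a5, Cyp2c40 and Cyp2f2 (3.67% of 17824 genes), and 0 were higher (4.29%). Cyp2a4 and Cyp2a5 were lower in both tissues, as were 1.16% of genes measured in both. The median over the measured members was -0.19 in non-tumor lung and -0.78 in tumors, beside 0.02 and -0.03 over all genes. Cyp2b10, Cyp2e1 and Cyp4b1 were higher in the Nrf2-/- tumor than in the Nrf2+/+ tumor, by 0.89, 0.70 and 0.61, none of them 2-fold.

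**Figure D3:**
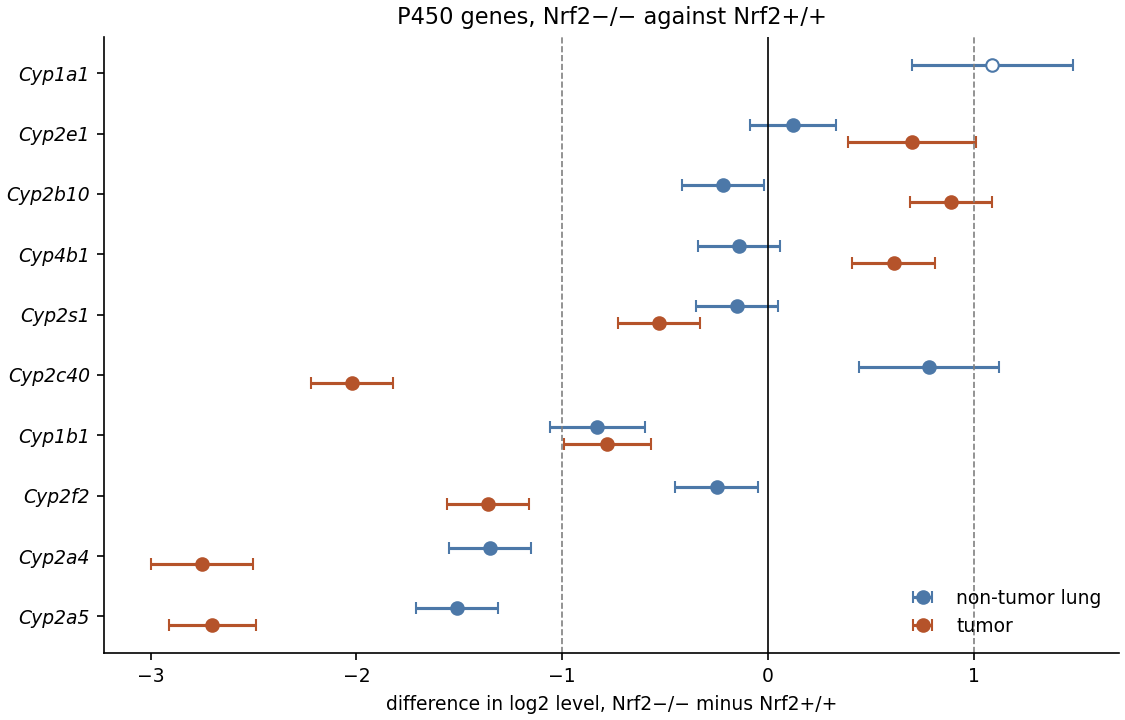
Difference in log2 level, Nrf2-/- minus Nrf2+/+, of the main probe of each P450 gene in non-tumor lung and in tumors (1 array per pool). Bars are the software's error, dashed lines mark 2-fold and the open point had 1 array not well above background; Cyp2a4 and Cyp2a5 lie left of the 2-fold line in both tissues, Cyp2f2 and Cyp2c40 only in tumors.

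The size of the tumor difference itself varied with genotype for 5 members by 2-fold or more, as it did for 6.70% of 18786 genes measured in both genotypes. Taken as the Nrf2-/- value minus the Nrf2+/+ value, it was -2.80 for Cyp2c40, -1.40 for Cyp2a4, -1.19 for Cyp2a5, -1.12 for Cyp2f2 and 1.11 for Cyp2b10. Cyp4b1 (0.76) and Cyp2e1 (0.57) had the sign of Cyp2b10, Cyp2s1 had -0.38, and Cyp1b1 had 0.05. With 1 array per group these differences of differences have no test, and the Nrf2+/+ value in each of them runs across slides. Median scaling and the mean of all probes put 4 members past 2-fold, and normexp 2. Normexp also lowered the counts of all genes past 2-fold in each comparison. The share of all genes with normexp was not counted for this measure.

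One test could be made over all 4 arrays: a limma fit with an effect of tissue and an effect of genotype, which leaves 1 residual degree of freedom and treats the interaction just described as error. By this limma fit 0 of 20553 genes passed an adjusted p of 0.05 for tissue (0%), and so none of the 10 members did, although 29.7% of genes and all 10 members were below an unadjusted p of 0.05. The members' adjusted p in limma for tissue lay between 0.0707 and 0.12, and 0.0707 was the smallest of any gene. With 1 residual degree of freedom, an adjusted p above the threshold does not show that tissues did not differ. The tissue effect of Cyp2e1 was -1.11 (SE 0.22, limma adjusted p = 0.0953), lower in tumor in both genotypes. That of Cyp2f2 was -1.93 (SE 0.35, limma adjusted p = 0.087), and that of Cyp1b1 was 2.10 (SE 0.15, limma adjusted p = 0.0707).

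The call depends on the settings of the fit. Restricted to genes well above background on all 4 arrays, limma called 3852 of 16287 genes and all 9 members it held, with adjusted p from 0.00319 to 0.021, Cyp2e1 at 0.0153. With an intensity trend in the variance prior it called 4622 genes and 9 members, Cyp1a1 (adjusted p = 0.0761 in limma) being the exception. With median scaling it called 7 members and with normexp 8, but not Cyp2e1, whose adjusted p in limma was 0.0779 and 0.0901. With quantile normalization and with the mean of all probes it called 0 genes, and the limma adjusted p of Cyp2e1 was 0.103 and 0.0965. For genotype limma called 0 of 20553 genes (9.29% below an unadjusted p of 0.05, 4 members among them), and the members' adjusted p ran from 0.386 to 0.861. Cyp2a5, at -2.11 (SE 0.37, limma adjusted p = 0.386), was the member with the largest genotype effect, and it was called only with the intensity trend (adjusted p = 0.0324 in limma).

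Beside the 10 members the array held 66 other P450 genes, of which 39 were well above background on at least 1 array. In Nrf2+/+ mice 12 of 37 measured were at least 2-fold lower in tumor and 2 higher, with a median of -0.65. All measured genes had 15.3% lower and 8.08% higher there. Counted by measured value were Cyp2a22 and Cyp2u1 as lower, with bounds of 1.45-fold and 1.55-fold, and Cyp3a25 as lower, with no bound. Cyp2j13 was likewise counted as higher, with a bound of 1.74-fold. In Nrf2-/- mice 11 of 33 were lower and 2 higher, with a median of -0.31, beside 9.12% and 5.43% of all measured genes. Cyp2j9 read 349, 486, 79.0 and 137 and had tumor differences of -1.69 and -1.48. Cyp4f15, a fatty acid hydroxylase, read 804, 346 and 105 in the first 3 pools and 23.7, not well above background, in the Nrf2-/- tumor. Its tumor difference was -2.49 in Nrf2+/+ mice and at least 9.28-fold lower in Nrf2-/- mice, and its genotype difference in non-tumor lung was -1.18, so it had the order of pools of Cyp2a5. Cyp2ab1 was well above background in the Nrf2-/- tumor only (39.6), at least 2.45-fold above non-tumor lung.

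**Figure D4:**
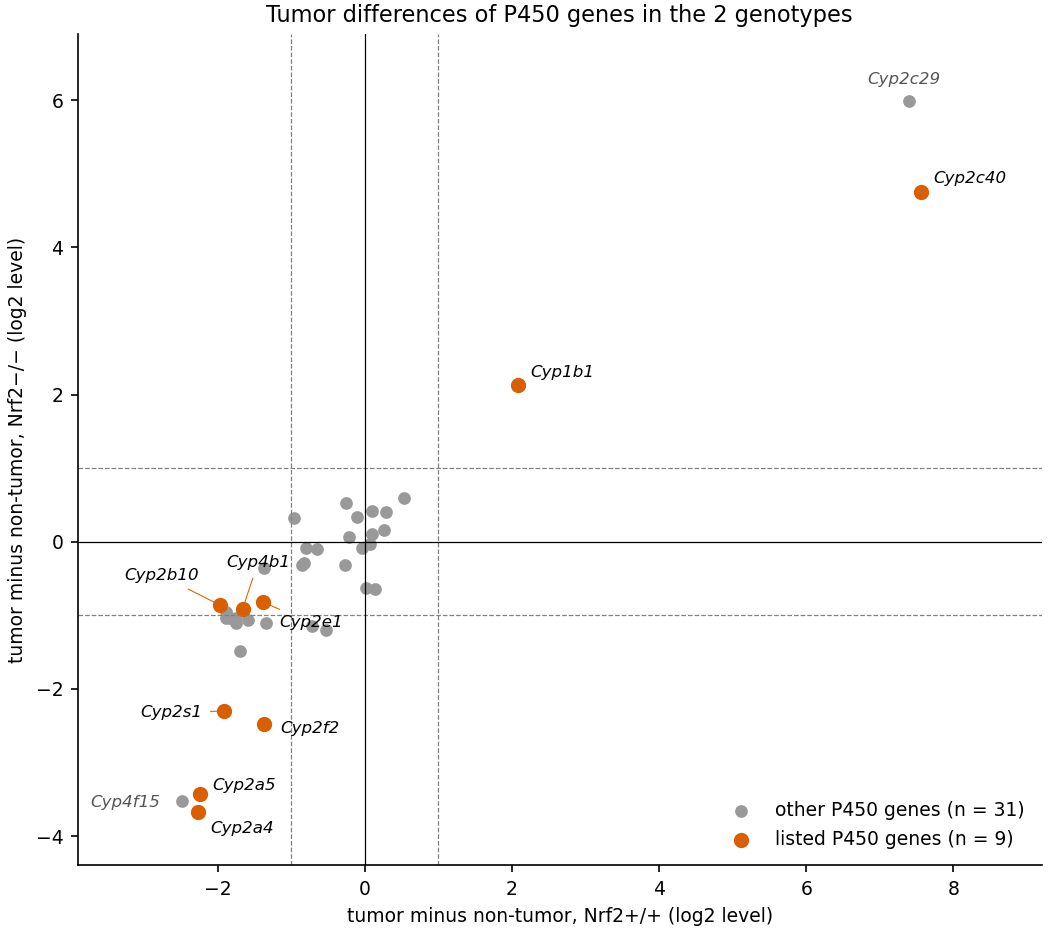
Tumor minus non-tumor difference in log2 level in Nrf2+/+ mice (x axis) and Nrf2-/- mice (y axis) for the 9 listed P450 genes and 31 other P450 genes measured in both comparisons; dashed lines mark 2-fold. Among the other genes 8 lie past 2-fold lower in both genotypes and 1, Cyp2c29, past 2-fold higher in both. Of all genes measured in both comparisons, 6.68% were lower and 3.51% higher in this way. Of the 8, Cyp2b13, Cyp2d12, Cyp2d9, Cyp27a1, Cyp2b9 and Cyp2d22 lie close to the mark in Nrf2-/- mice, between -1.10 and -1.03. Second probes of Cyp2b9, Cyp2d22 and Cyp2d9 fell short of 2-fold there, at -0.87, -0.97 and -0.89. Genes such as Cyp2c29 and Cyp4f15 are plotted at their raw values although some of their arrays were not well above background.

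Many of these genes are neighbours. In RefSeq order, Cyp2s1, Cyp2b10, Cyp2a4, Cyp2a5 and Cyp2f2 lie in 1 cluster on chromosome 7 that runs from Cyp2s1 to Cyp2f2 and holds 12 P450 genes, all of them on the array. Of these, 8 were well above background on all 4 arrays, a stricter filter than that of the counts above. Among the 8, 7 were at least 2-fold lower in tumor in Nrf2+/+ and 6 in Nrf2-/- mice. By the looser rule 15.3% and 9.12% of all measured genes were. Since Cyp2a probes, and Cyp2b probes, may share signal, the genes counted are uncertain as separate measurements. Of the 8, those that are no members of the list were Cyp2b13 (-1.88 and -1.03), Cyp2b9 (-1.34 and -1.10) and Cyp2b19, the exception, with 0.29 and 0.40. A second Cyp2b9 probe gave -2.11 and -0.87. Cyp2b13 and Cyp2b9 resemble Cyp2b10 in sequence and may share signal with it. The Cyp2b genes of the cluster were higher in Nrf2-/- than Nrf2+/+ tumors (Cyp2b10 by 0.89, Cyp2b13 by 0.88 and Cyp2b9 by 0.67, with Cyp2b19 at -0.16), while Cyp2a4 and Cyp2a5 were lower.

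Of 8 genes for proteins that serve P450 enzymes, all measured, 1 was at least 2-fold lower in Nrf2+/+ tumors, Pgrmc1, a haem-binding membrane protein (-1.36), and 0 in Nrf2-/- tumors, where Pgrmc1 was at -0.79. Por, the reductase, read 11391, 12466, 6990 and 8229 and had tumor differences of -0.25 and -0.25. The cytochrome b5 genes Cyb5a (-0.37 and -0.47) and Cyb5b (0.52 and 0.50) and the b5 reductase Cyb5r3 (0.54 and 0.29) stayed within 2-fold.

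Among 11 regulators of P450 genes, 8 were measured in each tumor comparison, with 1 lower and 1 higher in each. Cebpa, a factor of alveolar and liver cells, was higher in tumor by 2.51 and 1.83 (signals 3490, 4111, 14488 and 11527). Nr1i2, the receptor PXR, was the lower one, at least 2.37-fold and at least 1.63-fold, since neither tumor pool was well above background. Nr1i3, the receptor CAR, was not well above background in any pool, so Cyp2b10 has no measured level of its receptor beside it. Hnf4a, a factor of liver and gut, was well above background in both non-tumor pools only. Ahr, the receptor of Cyp1a1 and Cyp1b1, read 4219, 3922, 3347 and 3409, with tumor differences of 0.12 and 0.14.

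Of 7 other targets of the aryl hydrocarbon receptor 6 were on the array and 4 were well above background in at least 1 pool. Tiparp, its feedback target, was at -0.19 and 0.00 for tumor. Ahrr, the receptor's repressor, read 22.7, 27.9, 14.8 and 22.1, close to the background limit in every pool. Only its Nrf2-/- non-tumor value was well above background, and it lay just 1.26-fold above the Nrf2+/+ non-tumor value. Nqo1, a quinone reductase that Nrf2 also drives, read 248, 78.8 and 58.1 and, not well above background, 34.7: the genotype difference in non-tumor lung was -1.62 and the tumor difference in Nrf2+/+ mice -1.64. Ugt1a6b, a glucuronosyltransferase, was at 0.72 and 0.03 for tumor. None of the 4 was 2-fold higher in tumor, where Cyp1b1 was.

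Beside Cyp2e1, a list of 11 genes for clearance of urethane and its epoxide was read. In it 3 of 11 measured genes were at least 2-fold lower in Nrf2+/+ tumors and 2 of 10 in Nrf2-/- tumors, with none higher and medians of -0.48 and -0.33. Ephx1, the microsomal epoxide hydrolase, read 6317, 7190, 2954 and 3653, with tumor differences of -0.64 and -0.63. Of the carboxylesterases, Ces2g was at -2.04 and -1.33, Ces1d at -0.89 and -0.79, and Ces1g was at least 10.4-fold lower in Nrf2-/- than Nrf2+/+ non-tumor lung. Adh1, an alcohol dehydrogenase, was at -1.60 and -1.43.

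Markers of the cells that hold P450 enzymes differed between the pools as well. Of 11 club cell markers 10 were on the array: 3 were at least 2-fold lower and 1 higher in Nrf2+/+ tumors (median -0.29), and 6 lower and 2 higher in Nrf2-/- tumors (median -1.57). Reg3g was counted among the 6 by its measured value, with no bound, since its Nrf2-/- tumor signal was not well above background. The summed level of the club markers, in units of the array's 75th percentile, was 691, 601, 594 and 319. A sum of this kind, here and in the lists below, weighs the brightest genes most. For club markers these were Scgb1a1 and Cbr2, the latter at 286477, 238418, 209920 and 117176. Scgb1a1, the defining club cell secretoglobin, read 228510, 194513, 115815 and 64653, a tumor difference of -0.53 in Nrf2+/+ and -1.24 in Nrf2-/- mice. The tumor differences of Cyp2f2, as given above, were -1.37 and -2.48. Other club markers were Cldn10 (-2.11 and -2.55), Gabrp (-2.54 and -2.45), Lypd2 (-2.00 and -2.25) and Bpifa1, at least 8.09-fold and at least 5.97-fold higher in tumor.

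By measured values all 9 ciliated cell markers on the array were at least 2-fold lower in tumor in both genotypes (medians -2.03 and -2.70). For Ccdc39 in Nrf2-/- mice the bound was only 1.75-fold. Of all genes measured in both comparisons, 6.68% were lower in this way. Summed levels of the ciliated markers were 50.5, 43.6, 14.7 and 12.6. Foxj1, their defining factor, was at -2.24 and -3.22. Alveolar type 2 markers lay on the other side, with 7 of 10 at least 2-fold higher in Nrf2+/+ and 5 of 10 in Nrf2-/- tumors (medians 1.21 and 0.96) and summed levels of 683, 804, 1240 and 1310. Endothelial markers were lower (7 of 10 and 5 of 10), as were 5 of 9 and 2 of 9 alveolar type 1 markers. The part of these shifts in the P450 values was not tested.

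Since Cyp2e1 is best known from the liver, hepatocyte markers were read beside it. Of 9 on the array, 6 were well above background in at least 1 pool, and summed levels were 0.659, 0.72, 6.83 and 3.98. In Nrf2+/+ tumors 3 of 5 measured were at least 2-fold higher and 0 lower, and in Nrf2-/- tumors likewise 3 of 5 and 0. Alb read 56.7, 34.3, 1837 and 254, while Ttr, Fgb and Apoc3 were not well above background in any pool. Ahsg, a plasma glycoprotein, was higher in tumor by 4.54 and 3.29. Tat (-0.96 and -0.21) and Hpx (-0.35 and -0.32), well above background in all pools, were below 0, and F2 was well above background in the Nrf2-/- tumor only; these 3 were chosen after their values were seen. The part of these markers in the Cyp2e1 values was not tested.

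**Figure D5:**
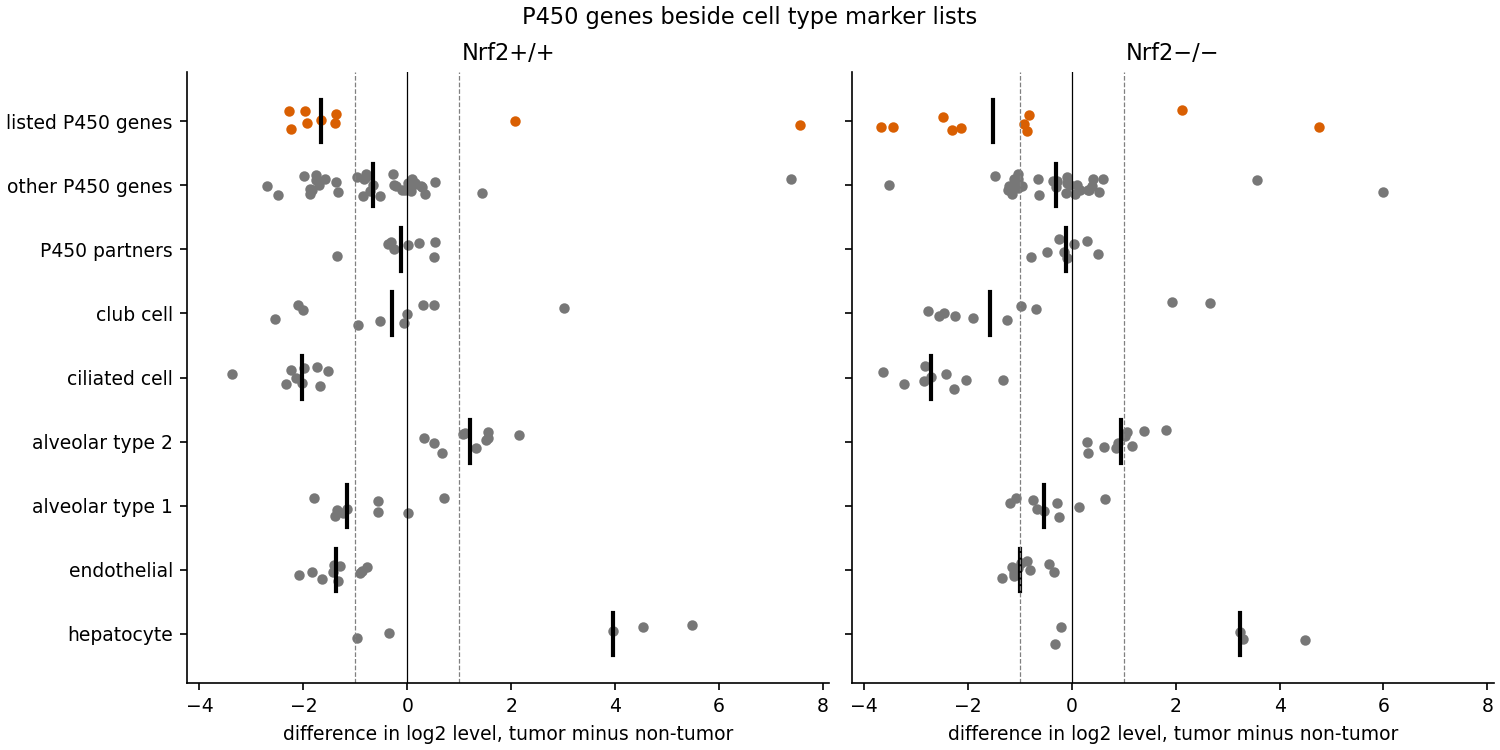
Tumor minus non-tumor differences in log2 level of the measured listed P450 genes and of the other lists in each genotype; points are genes, black bars are list medians and dashed lines mark 2-fold. The listed P450 genes have medians of -1.66 and -1.52, ciliated markers -2.03 and -2.70, club markers -0.29 and -1.57, and alveolar type 2 markers 1.21 and 0.96.

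Genes whose 4 levels, centred on their mean, lay nearest to those of Cyp2e1 were sought among 12291 named genes well above background on all arrays. They included Cfhr2 at a Euclidean distance of 0.083 log2 units, Plcl1 at 0.093 and Calcr at 0.107. In all, 113 genes lay within 0.25 of Cyp2e1. Cyp2f2 had 0 genes within 0.25: its nearest were Cfap52 at 0.276, Nme5 at 0.297, Saxo2 at 0.353, Chad at 0.385 and Pifo at 0.402. Their tumor differences ran from -1.92 to -1.48 in Nrf2+/+ and from -2.69 to -2.08 in Nrf2-/- mice.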

How the data were processed

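RNA of 4 pools was labelled with Cy3 and read on Agilent design 014868 with Feature Extraction 10.7.3.1, per the file headers. What the authors deposited is linear spot intensity after background subtraction and detrending, with an error per spot, per the file headers. The deposited value table equalled that intensity within 0.50%, unlogged and uncentred, with column medians of 71.0, 61.9, 41.8 and 44.3. Non-control probes numbered 41174; 4 were dropped for non-uniform spots and 26691 were named through their accession in RefSeq's table (GRCm38.p6), and all 10 members were found.

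The log2 of the processed signal minus the array's 75th percentile was computed, and the probe with the highest mean level stood for a gene. Where 1 array was not well above background, a lower bound is given: the bright mean over the higher of that array's lowest signal well above background and the dim probe's own signal. Where the dim probe's own signal is the higher, the value is the measured fold and no bound. The software's error is the only error of a difference, and the number of arrays (1 per group) limits the precision. The additive model (limma 3.58.1, R 4.3.3, Benjamini-Hochberg) was also run on simulated data. Those held additive effects and independent noise only, so they do not check the error of the model on the real arrays. The model's error is the interaction of tissue and genotype, with 1 residual degree of freedom, together with a variance prior taken over all genes. The slide of Nrf2+/+ non-tumor lung enters that interaction too. No p-value from it measures a spread among replicate pools, since there were none. From each list of other genes, the up to 4 measured genes with the largest mean tumor difference are named, with Por, Ahr, Ahrr, Nr1i2, Nr1i3, Ephx1, defining cell markers and the 5 genes nearest in pattern, of which some are not reported here. Fibroblast and smooth muscle, gut epithelium and macrophage markers were read too. The members, lists and the spike-in alternative were chosen with earlier results of these data known. Alternatives were scaling on the median or on 6 bright spike-in probes, quantile normalization, normexp (offset 50), the mean of all probes, the unscaled value table, genes above background on all 4 arrays, and an intensity trend.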

Additional observations from a re-analysis of the deposited data

Results flagged for a closer look

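For 3 members the genotype difference, Nrf2-/- minus Nrf2+/+, had one sign in non-tumor lung and the opposite sign in tumors. With 1 array per pool this is a comparison of single values, and the difference was not tested. Cyp2b10 was at -0.22 in non-tumor lung, within 2 software errors of 0, and at 0.89 in tumors. Cyp4b1 was at -0.14 in non-tumor lung, within its software error of 0.20, and at 0.61 in tumors. Cyp2c40 was at 0.78 in non-tumor lung, where its signal was near background, and at -2.02 in tumors.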

How the results depend on the processing

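Every member that passed 2-fold kept its direction under the 6 settings that gave it another value. The counts of members at least 2-fold lower or higher in Nrf2+/+ tumors, higher in Nrf2-/- tumors, lower in Nrf2-/- non-tumor lung, and lower or higher in Nrf2-/- tumors against Nrf2+/+ tumors stayed within 1.5 times. In Nrf2-/- tumors 8 members were lower with spike-in scaling and 8 unscaled, against 5, where 13.9% and 15.6% of measured genes were, against 9.12%. In non-tumor lung 0 members were higher in Nrf2-/- mice with normexp and 0 over genes on all 4 arrays, against 1, since Cyp1a1 was then short of 2-fold or left out. The tumor difference varied 2-fold with genotype for 2 members with normexp, against 5, and the share of all genes with normexp was not counted for it. For tissue limma called 7 members with median scaling, 8 with normexp, 9 over genes on all 4 arrays and 9 with an intensity trend, against 0, and for genotype 1 with the trend, against 0; over all genes it called 2155, 3123, 3852 and 4622 for tissue and 78, 52, 150 and 240 for genotype, against 0 and 0. The cause of these shifts was not tested.

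The all-gene median shifted by 0.29 with the array median, -0.22 with spike-ins and -0.45 unscaled in Nrf2+/+ tumors, by 0.14, -0.27 and -0.35 in Nrf2-/- tumors, and by 0.14 with the array median in non-tumor lung. The share of 2-fold calls that were higher went from 34.5% to 55.1%, 23.1% and 13.6% in Nrf2+/+ tumors and from 37.3% to 48.1%, 21.8% and 18.7% in Nrf2-/- tumors, and from 39.7% to 51.6% with the array median in non-tumor lung. Normexp lowered the counts of genes past 2-fold: 1172 lower and 1117 higher against 3052 and 1608 in Nrf2+/+ tumors, 526 and 727 against 1772 and 1055 in Nrf2-/- tumors, 252 and 203 against 931 and 614 for genotype in non-tumor lung, and 239 and 348 against 655 and 764 in tumors. Cyp4b1 in non-tumor lung went from -0.14 to 0.00 for genotype with the array median.

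Normexp on mean signals was not run; normexp on median signals, chosen after seeing the data, took its place. No paired analysis was possible because each group has 1 array and the replicate numbers of the labels run on from group to group. A slide effect could not be fitted, since it would leave no residual degree of freedom. The tumor signal of Cyp2e1 and all signals of Cyp1a1 but 1 are close to background, which limits what their differences show.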

Other observations

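Some stomach and gut genes, read as a check on other epithelia, were higher in tumors. Of 7 gut epithelium markers on the array, 3 of 5 measured were at least 2-fold higher in Nrf2+/+ tumors and 4 of 6 in Nrf2-/- tumors, with summed levels of 1.95, 1.25, 13.7 and 12.6 in the order of pools used above. Cldn2, a pore-forming claudin, was at least 160-fold higher in Nrf2+/+ and at least 110-fold higher in Nrf2-/- tumors, and Gkn2, a gastrokine of the stomach lining, was at least 220-fold higher in Nrf2+/+ tumors and higher by 6.42 on the log2 scale in Nrf2-/- tumors. Unlike Cyp2c40, which was 4.04-fold lower in the Nrf2-/- tumor, Cldn2 and Gkn2 differed between the tumors by -0.59 and 0.22. Lgals4 stayed within 2-fold (0.21 and 0.68), Fabp2 was not well above background in either tumor pool, Tff3 was well above background in the Nrf2-/- tumor only, and Cdx2 in no pool.

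Of 7 macrophage markers measured, 2 were at least 2-fold lower and 1 higher in Nrf2+/+ tumors and 1 was higher in Nrf2-/- tumors. The lower ones were Marco (-1.61 in Nrf2+/+ and -0.88 in Nrf2-/- mice) and Mertk (-1.17 and -0.26). Fabp4, a lipid carrier, was the higher one in both genotypes (1.20 and 1.27). Of 10 smooth muscle and fibroblast markers 4 were lower in Nrf2+/+ and 5 in Nrf2-/- tumors, with medians of -0.73 and -1.07.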
